A study of Mus musculus with 6 samples.

Results

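The genes described here are 10 members of the bone morphogenetic protein (BMP) and growth differentiation factor (GDF) signaling family in the mouse intervertebral disc (IVD). They were chosen by name from the 43472 gene symbols that were counted. They are 6 secreted ligands (Bmp2, Bmp4, Bmp6, Bmp7, Gdf5 and Gdf10), 2 secreted antagonists (Nog and Grem1) and 2 transcriptional targets (Id1 and Id3). All 10 symbols were found, and all 10 passed the filter on low counts that left 16152 genes for testing. RNA sequencing (RNA-seq) compared IVDs of Col2Cre; Adgrg6f/f mutant mice, strain C57B6/J, with IVDs of wild type controls of that strain, at postnatal day 20. Each genotype had 3 libraries, and each library was a pool of thoracic and lumbar discs from 2 to 3 mice. The Col2Cre transgene, driven by type II collagen regulatory sequence, recombined the whole disc and also the periosteum and trabecular bone of the vertebra in reporter mice of the study. The genotype label of the controls is wild type, their titles read Col2Cre control and the study describes Cre (-) littermates. Whether they carry the floxed allele is not given in the sources used here.

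BMP and GDF ligands belong to the TGF-β superfamily. They bind pairs of type I and type II serine/threonine kinase receptors. For many BMP ligands, but not for every GDF, these receptors phosphorylate SMAD1, SMAD5 and SMAD9, which enter the nucleus with SMAD4 to regulate target genes. The Id genes, which encode helix-loop-helix proteins without a DNA-binding domain, are among the most direct targets. Noggin and Gremlin 1 bind ligands outside the cell and keep them from their receptors. In the spine, the pathway is known for its part in forming vertebral cartilage, joints and the growth plate, and noggin is made by the notochord, which gives rise to the nucleus pulposus.

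Libraries held between 9061491 and 12017008 counts on genes, so that 3 counts corresponded to 0.250 to 0.331 counts-per-million units (CPM). Markers of disc cartilage (Acan, Col2a1, Comp and others, 9 genes in all, none at 0) summed to between 82766 and 143780 CPM in every library, and 7 nucleus pulposus markers, also none at 0, to between 2397 and 5823 CPM. Col2a1 alone, at 62708 to 124060 CPM, made up most of the cartilage sum. Of these 9 genes, 1 was lower and 0 higher in mutant IVDs, Matn3 at 0.581 times the control level (edgeR unadjusted p = 0.0178). The nucleus pulposus markers had 0 higher and 0 lower at an unadjusted p under 0.05. Control replicate 1 stood apart by skeletal muscle genes, of which 9 markers summed to 4435 CPM there and to between 201 and 289 CPM in the other 5 libraries. Of 12 immediate early genes, 9 were higher in mutant IVDs at an unadjusted p under 0.05 and 0 lower, with sums of 439.7 to 597 CPM in control and 692 to 1602 CPM in mutant libraries and none at 0. Among 7 tendon and outer annulus markers, none at 0, 3 were higher and 0 lower, with sums of 6768 to 16894 CPM in control and 15311 to 25267 CPM in mutant libraries. Among 5 hypertrophic chondrocyte markers, none at 0, 2 were lower and 0 higher, with sums of 1239 to 2380.5 CPM in control and 1097 to 1415 CPM in mutant libraries. The lower ones were Ihh, at 0.357 times the control level (edgeR unadjusted p = 8.88e-05), and Pth1r, at 0.612 times (edgeR unadjusted p = 0.0147). Ibsp, which is also among the osteoblast markers below, had means of 355 CPM in control and 481 CPM in mutant IVDs, with overlapping libraries. The targeted gene, listed by its older symbol Gpr126, was at 109 ± 14.7 CPM in control and 122 ± 16.1 CPM in mutant IVDs (SD, n = 3). This was 1.13 times the control level (edgeR unadjusted p = 0.367), so these counts do not show a loss of the targeted gene. They cover the whole gene rather than the deleted part.

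The comparison asks whether the ligands, antagonists and targets of this pathway differed in expression between mutant and control IVDs before structural changes of the disc are seen. Bmp7 was the single member that was lower in mutant IVDs at an unadjusted p under 0.05, and no member was higher at that threshold. Bmp4 had the most positive fold change, just outside the threshold. Both Id targets and Bmp2, Bmp6 and Gdf10 had changes smaller than their standard errors, and Nog and Grem1 were at lower means in mutant IVDs with overlapping libraries. In what follows SE stands for standard error, unadjusted p, where no tool is named, for the value of the edgeR quasi-likelihood test fitted on all genes, and adjusted p for the Benjamini-Hochberg value. The 3 values of a genotype follow replicate order. With edgeR, 1 of the 10 members had an unadjusted p under 0.05, compared with 7.21% of all genes tested in both directions and 4.32% in the lower direction alone. At an adjusted p under 0.05 edgeR called 0 of these 10, compared with 0.00619% of all genes tested. At an unadjusted p under 0.05 DESeq2 called 2 members, compared with 7.6% of all genes by that tool, and limma-voom 2 members, compared with 9.14%. After adjustment each called 0 members, compared with 0.359% of all genes for DESeq2 and 0% for limma-voom. Genotypes separated without overlap for 1 member, Bmp7, in the lower direction, compared with 11.4% of all genes tested in either direction, 5.96% lower and 5.45% higher. The median log2 fold change of the 10 members was -0.01, the same to this rounding as that of all genes tested, and 5 of the 10 were above 0. By role, the median was 0.06 for the ligands, -0.38 for the antagonists and 0.02 for the Id targets. In bulk tissue, fewer cells of a type and less RNA per cell cannot be told apart.

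**Figure D1:**
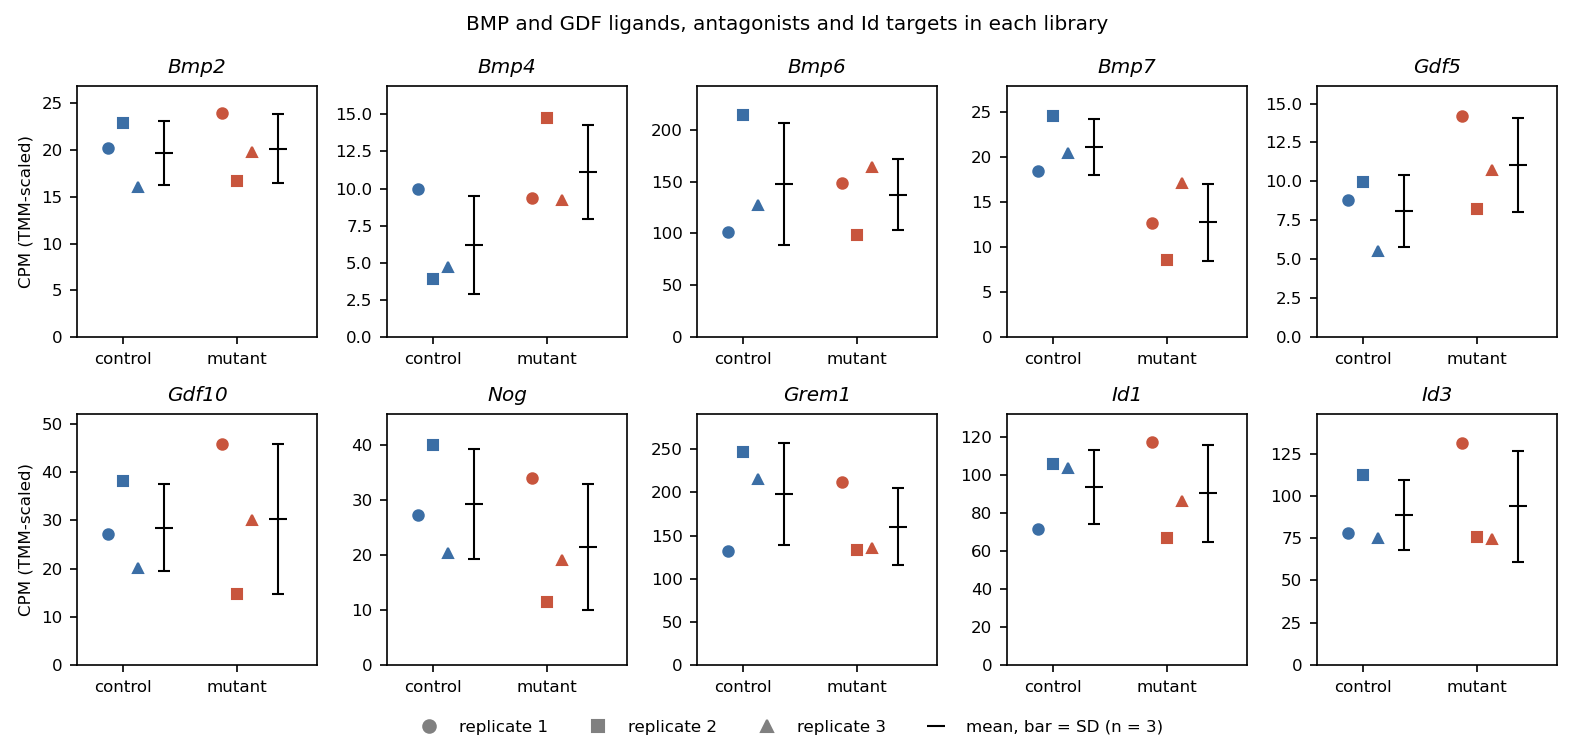
Expression of the 10 genes in each library, as TMM-scaled CPM, for control (blue) and mutant (red) IVDs. Symbols mark the replicates, and the black bar is the mean ± SD of 3 libraries. Bmp7 alone has all 3 mutant libraries below all 3 controls, with 17.1 CPM the highest mutant and 18.4 CPM the lowest control value.

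Levels can be compared between genes only per length, and are given here as CPM per kilobase (kb) of merged exons. In control IVDs, Id1 had the highest level at 80.6 ± 16.6 CPM per kb (SD, n = 3), followed by Id3 at 49.4 ± 11.6, Grem1 at 47.8 ± 14.3 and Bmp6 at 37.9 ± 15.1 CPM per kb. The ranges of neighbouring genes among these 4 overlapped over the libraries. Within single libraries Id1 was nevertheless above Id3 in 3 of 3 control and 3 of 3 mutant libraries, while Id3 was above Grem1 in 2 of 3 controls, and Grem1 above Bmp6 in 3 of 3 controls and 2 of 3 mutants. Nog, at 17.2 ± 5.88 CPM per kb, lay below Bmp6 and above Bmp2 in every control library. The remaining ligands were lower. Bmp2, Gdf10 and Bmp7 lay at 5.54 ± 0.971, 5.47 ± 1.75 and 5.26 ± 0.776 CPM per kb, with overlapping libraries. With the level of Gdf5 taken over all its merged exon bases, Bmp7 was in every control library above Gdf5 at 3.49 ± 0.989. Bmp4 was lowest, at 2.75 ± 1.47 CPM per kb, and overlapped Gdf5. Among the 10 members the Id targets, Grem1 and Bmp6 thus had the highest levels, while of the other pathway genes Nbl1, a secreted antagonist, was at 63.9 ± 7.5 CPM per kb in control IVDs. In mutant IVDs the first 5 genes kept this order by mean. Bmp7 was there the lowest, at 3.18 ± 1.06 CPM per kb, and Bmp4 was at 4.94 ± 1.41 CPM per kb, and the ranges of neighbours among the last 6 genes overlapped over the libraries. Bmp7 was above Gdf5 in 3 of 3 control and 0 of 3 mutant libraries. Of the merged exon bases of Gdf5, however, 40.3% are shared with Gm15557 on the opposite strand. If reads there were set aside as ambiguous, the level of Gdf5 per kb is too low. Whether Bmp7 would then still lie above Gdf5 in the controls was not tested. With the longest transcript as the length in place of merged exons, 7 of the 10 control positions were the same, and Bmp7, Bmp2 and Gdf10 changed places.

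**Figure D2:**
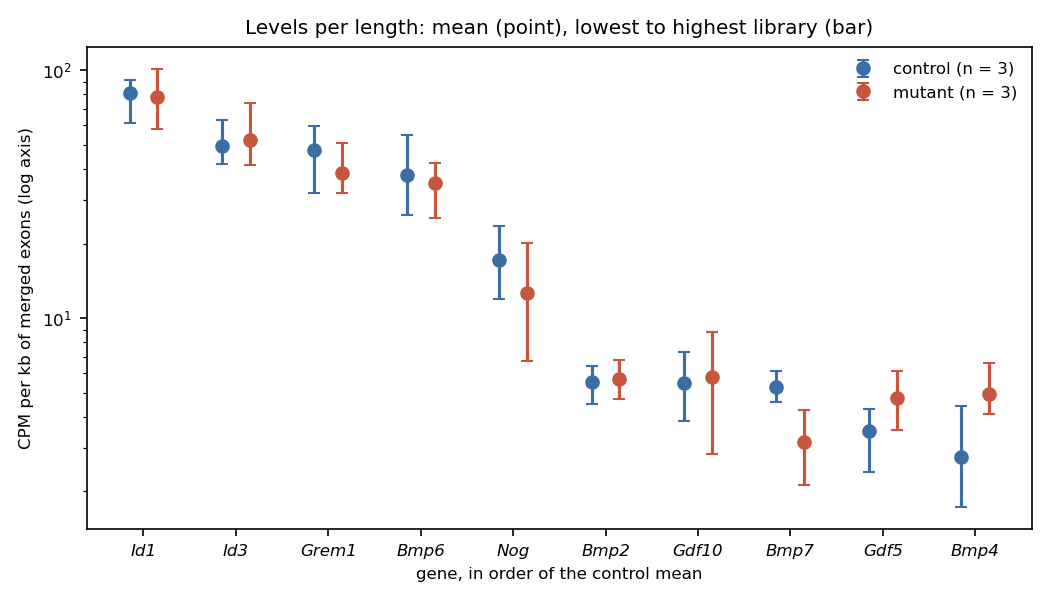
Level of each gene in CPM per kb of merged exons, on a log axis, in control and mutant IVDs, ordered by the control mean. Points are means and bars run from the lowest to the highest of 3 libraries. The means run from 80.6 CPM per kb for Id1 to 2.75 CPM per kb for Bmp4 in control IVDs.

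Bmp7, also known as osteogenic protein 1, is a ligand known to promote matrix synthesis by disc and cartilage cells. It lies on chromosome 2 from 172868012 to 172940321 on the minus strand (GRCm38). Its expression was 18.4, 24.5 and 20.5 CPM across the controls against 12.6, 8.57 and 17.1 CPM across the mutants. The groups did not overlap, but mutant replicate 3 lay close to control replicate 1. The mean was 21.1 ± 3.12 CPM in control and 12.8 ± 4.27 CPM in mutant IVDs (SD, n = 3), and the log2 fold change was -0.73, or 0.602 times the control level (SE 0.27, unadjusted p = 0.0201, adjusted p = 0.676). Counts behind these values were 172, 221 and 262 in control and 111, 105 and 161 in mutant libraries. This call rests on single libraries: leaving out control replicate 2 gave an unadjusted p = 0.0695, mutant replicate 1 an unadjusted p = 0.0530, and mutant replicate 2 an unadjusted p = 0.0680 with a log2 fold change of -0.49. Without control replicate 1, the library with muscle genes, the log2 fold change of Bmp7 was -0.80 (unadjusted p = 0.0201). The part of the lower hypertrophic and higher tendon markers in the Bmp7 difference was not tested.

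Bmp4, a ligand made by many connective tissues, lies on chromosome 14 from 46383520 to 46390669 on the minus strand. Of its exon bases, 4.0% are shared with Gm15217 on the opposite strand, which took 47 counts in control and 12 in mutant libraries. The expression of Bmp4 was 9.95, 3.89 and 4.69 CPM across the controls against 9.33, 14.8 and 9.24 CPM across the mutants. Control replicate 1 lay above mutant replicates 1 and 3, so the groups overlapped, while the other 2 control libraries lay below all 3 mutant libraries. The mean was 6.18 ± 3.30 CPM in control and 11.1 ± 3.17 CPM in mutant IVDs. Bmp4 thus had a log2 fold change of 0.85 (SE 0.39, unadjusted p = 0.0532, adjusted p = 0.691). The control replicate that overlapped was the one with skeletal muscle genes. Without it, the log2 fold change was 1.39 (unadjusted p = 0.00273). With mutant replicate 2 left out instead, the log2 fold change was 0.60 (unadjusted p = 0.202). DESeq2 and limma-voom placed Bmp4 at an unadjusted p of 0.0400 and 0.0127. Summed red blood cell precursor markers put the 6 libraries in the same order as Bmp4, at 342, 39.6 and 99.98 CPM across the controls against 274, 449 and 213 CPM across the mutants. Sums of 10 endothelium markers, of which 0 were called by edgeR at an unadjusted or adjusted p under 0.05 and none were at 0, were also lowest in control replicates 2 and 3, at 191 and 221 CPM, and between 269.7 and 339.7 CPM in the other 4 libraries. Tendon and outer annulus sums were lowest in these same controls, at 12145 and 6768 CPM. Col1a1 made up most of each such sum, at 12862, 7926 and 3879 CPM across the controls against 11537, 19450 and 20231 CPM across the mutants. Not every gene of that list had this order: Scx was at 33.2, 60.8 and 30.2 CPM across the controls. The part of muscle, blood, vessel or tendon tissue in the Bmp4 values was not tested.

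Gdf5, a ligand of developing joints, lies on chromosome 2 from 155941023 to 155945367 on the minus strand. It measured 8.78, 9.99 and 5.55 CPM across the controls against 14.2, 8.24 and 10.7 CPM across the mutants. Mutant replicate 2 lay below 2 of the 3 control libraries. The log2 fold change of Gdf5 was 0.45 (SE 0.32, unadjusted p = 0.184), and with any 1 library left out it was between 0.24 and 0.64. Of the exon bases of Gdf5, 40.3% are shared with Gm15557 on the opposite strand, on chromosome 2 from 155940728 to 155942750. Gm15557 took 45, 47 and 47 counts from the controls and 89, 54 and 76 from the mutants, where Gdf5 took 82, 90 and 71 and then 125, 101 and 101. The strand setting of the counting is not given in the sources used here, and reads in the shared part would be set aside as ambiguous if strand was ignored, or assigned by strand if it was used.

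The other 3 ligands had changes within their errors. Bmp2, on chromosome 2 from 133552159 to 133562885, is a ligand that drives chondrocyte maturation. It measured 20.2, 22.9 and 16.0 CPM across the controls against 24.0, 16.7 and 19.8 CPM across the mutants, and the groups overlapped. For Bmp2 this is a log2 fold change of 0.03 (SE 0.22, unadjusted p = 0.879). Bmp6, on chromosome 13 from 38345107 to 38500302, is made by hypertrophic chondrocytes and is also the ligand that controls hepcidin in the liver. It measured 102, 214 and 128 CPM across the controls against 149, 98.9 and 165 CPM across the mutants. The highest and lowest libraries of Bmp6 differed by about as much within the control group as across both groups, and the log2 fold change was -0.11 (SE 0.29, unadjusted p = 0.724). At its 3′ end it shares 5.7% of its exon bases with Txndc5 on the opposite strand. Gdf10, also called BMP3B, lies on chromosome 14 from 33923587 to 33937983. It measured 27.3, 38.2 and 20.1 CPM across the controls against 45.9, 14.7 and 30.2 CPM across the mutants. Both the highest and the lowest library of Gdf10 were mutant, and the log2 fold change was 0.08 (SE 0.37, unadjusted p = 0.828).

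Neither antagonist passed the unadjusted threshold. Nog, on chromosome 11 from 89300638 to 89302332, is a gene of a single exon. It measured 27.3, 40.0 and 20.3 CPM across the controls against 33.9, 11.3 and 19.1 CPM across the mutants. Mutant replicate 1 lay above 2 of the control libraries and the other 2 mutant libraries below all of them. For Nog this gave a log2 fold change of -0.45 (SE 0.37, unadjusted p = 0.255). This was -0.90 without mutant replicate 1 (unadjusted p = 0.0232) and -0.12 without mutant replicate 2 (unadjusted p = 0.717), and -0.16 without control replicate 2 (unadjusted p = 0.682). Grem1, on chromosome 2 from 113746164 to 113758646, is the other antagonist. It measured 132, 247 and 216 CPM across the controls against 212, 133 and 136 CPM across the mutants. Control replicate 1 was the lowest library and the other 2 controls the highest. Grem1 had a log2 fold change of -0.31 (SE 0.27, unadjusted p = 0.279). Without control replicate 1 it was -0.51 (unadjusted p = 0.0594), the smallest p among the 8 members other than Bmp7 and Bmp4 with that library left out. Those 8 members then had log2 fold changes of -0.51 to 0.53. Grem1 moved the other way to -0.13 without control replicate 2 (unadjusted p = 0.664), -0.17 without mutant replicate 2 (unadjusted p = 0.576) and -0.20 without mutant replicate 3 (unadjusted p = 0.541), and it was -0.52 without mutant replicate 1 (unadjusted p = 0.0900).

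Id1 and Id3 encode inhibitors of DNA binding that pair with basic helix-loop-helix factors. Id1, on chromosome 2 from 152736251 to 152737410, measured 71.4, 106 and 104 CPM across the controls against 117, 67.0 and 86.2 CPM across the mutants. Id3, on chromosome 4 from 136143497 to 136145755, measured 77.9, 112 and 75.1 CPM across the controls against 132, 75.4 and 74.5 CPM across the mutants. For both genes mutant replicate 1 was the highest of the 6 libraries and control replicate 2 the second highest. The log2 fold changes were -0.05 for Id1 (SE 0.24, unadjusted p = 0.827) and 0.08 for Id3 (SE 0.26, unadjusted p = 0.752). Across the 10 members, mutant replicate 1 was the highest library for 5 and control replicate 2 for 4, while mutant replicate 2 was the lowest for 5. Mutant replicate 1 also had the highest summed levels of immediate early genes and of neuron and glia, neutrophil precursor and macrophage markers. Of 9 neuron and glia markers, 3 were higher and 0 lower in mutant IVDs, with sums of 217 to 1655 CPM in control and 908 to 3579.9 CPM in mutant libraries and Tubb3 at 0 in every library. Of 9 neutrophil precursor markers, 2 were higher and 0 lower, with sums of 16.2 to 60.7 CPM in control and 34.0 to 157 CPM in mutant libraries. Of 7 macrophage markers, 1 was higher and 0 lower, with sums of 65.6 to 86.4 CPM in control and 77.4 to 153 CPM in mutant libraries. Of 7 red blood cell precursor markers, 1 was higher and 0 lower, with sums of 39.6 to 342 CPM in control and 213 to 449 CPM in mutant libraries, the highest in mutant replicate 2. The part of such cells, and of the immediate early genes, in the member values was not tested.

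**Figure D3:**
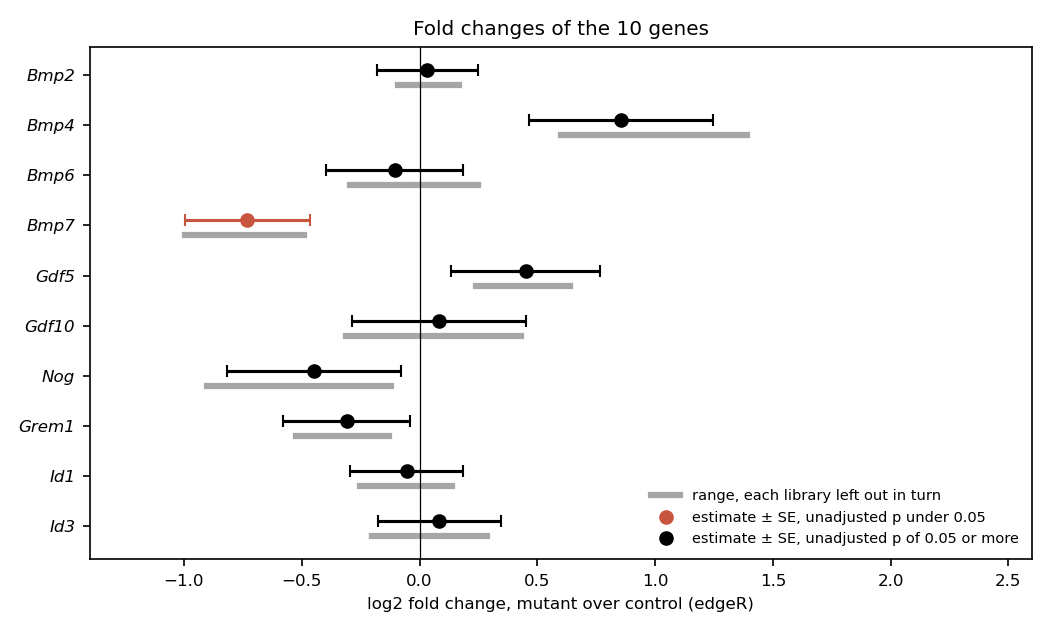
Log2 fold change of mutant over control for the 10 genes, with the standard error from edgeR as a black or red bar. The grey bar is the range with each library left out in turn. Bmp7 is at -0.73 with a range that ends at -0.49, and Bmp4 at 0.85 with a range from 0.60 to 1.39.

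The other genes of the pathway were read from a list of 71 genes grouped by role, of which 61 passed the filter. The list, called pathway genes here, also takes in TGF-β superfamily genes outside the BMP branch, among them Inha, Inhba, Gdf11 and Acvr1c. At an unadjusted p under 0.05 in edgeR, 3 were higher and 5 lower in mutant IVDs, which is 8 of 61 compared with 7.21% of all genes tested, and 0 passed after adjustment over all genes. All 8 had mutant libraries on one side of all control libraries, as had 11 of the 61 in all, compared with 11.4% of all genes tested. At an unadjusted p under 0.05 DESeq2 called 9 of the 61 and limma-voom 12, compared with 7.6% and 9.14% of all genes by the same tools. The median log2 fold change of the 61 genes was 0.03. The 10 genes that did not pass the filter had at most 10 counts in any library, and Bmp10 and Gdf1 were at 0 in every library. A count of 0 allows up to 3 counts, or 0.331 CPM in the shallowest library.

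Among the 4 Id genes, Id2 alone was higher in mutant IVDs at that threshold. Id2, on chromosome 12 from 25093799 to 25097140, measured 44.0, 54.3 and 40.5 CPM across the controls against 98.6, 70.1 and 64.5 CPM across the mutants. Its log2 fold change was 0.75 (SE 0.21, unadjusted p = 0.00443, adjusted p = 0.656). Leaving out each library in turn gave Id2 an unadjusted p of at most 0.0203, reached without control replicate 3. Id4 had a log2 fold change of -0.10 (SE 0.24, unadjusted p = 0.698), like Id1 and Id3 within its error. Whether the change of Id2 differs from those of Id1, Id3 and Id4 was not tested. Immediate early gene sums were highest in mutant replicate 1, as Id2 was, and neuron and glia sums were highest in mutant replicates 1 and 2, at 3579.9 and 2497 CPM, the highest libraries for Id2 too. The part of either list in the Id2 difference was not tested.

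The promoters of Id3, a member, and of Id2, the Id gene called, are shown as a description, with no tested difference between the genes. They run from 250 bases before to 50 bases after the RefSeq start on GRCm38.p6. The Id2 window is at chr12:25096043-25096342 on the minus strand and the Id3 window at chr4:136143572-136143871 on the plus strand. Both windows lie inside the gene coordinates given above, whose gene starts differ from the RefSeq starts. Capitals mark GGCGCC, a GC-rich sequence bound by SMAD proteins, and CCAAT, a sequence bound by the factor NF-Y, each searched on both strands, so that CCAAT can also appear as ATTGG.
Id2: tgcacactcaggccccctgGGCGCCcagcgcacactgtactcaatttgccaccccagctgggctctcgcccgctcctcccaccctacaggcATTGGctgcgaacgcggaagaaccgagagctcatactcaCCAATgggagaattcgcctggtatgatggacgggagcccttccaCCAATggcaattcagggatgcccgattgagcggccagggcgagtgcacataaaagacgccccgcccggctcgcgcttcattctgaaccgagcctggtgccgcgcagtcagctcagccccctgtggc
Id3: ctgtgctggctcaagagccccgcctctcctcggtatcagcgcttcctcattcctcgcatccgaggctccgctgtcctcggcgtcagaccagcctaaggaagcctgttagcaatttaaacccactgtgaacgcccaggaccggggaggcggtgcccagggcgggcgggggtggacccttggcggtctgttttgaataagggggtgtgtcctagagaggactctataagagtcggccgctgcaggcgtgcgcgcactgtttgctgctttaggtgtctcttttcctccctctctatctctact
The Id2 window holds GGCGCC 1 time and CCAAT, on either strand, 3 times, and the Id3 window holds neither sequence. The Id4 window, at chr13:48260866-48261165 on the plus strand, holds GGCGCC 1 time and CCAAT 2 times, and Id4 did not pass the test. Over 32851 promoter windows of this length, 11.9% hold GGCGCC and 37.4% hold CCAAT. The promoter table held 5 of the 10 members, of which Gdf10 and Grem1 had GGCGCC 1 time each and Bmp4, Bmp6 and Id3 had none. A match describes the letters in the window and not a bound site.

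Of 18 other ligands of the superfamily, 11 were tested, 1 was higher and 0 lower at an unadjusted p under 0.05, compared with 2.89% and 4.32% of all genes tested. The one was Gdf11, a ligand of axial patterning. It measured 2.78, 3.00 and 2.35 CPM across the controls against 7.74, 5.30 and 3.40 CPM across the mutants, a log2 fold change of 1.02 (SE 0.43, unadjusted p = 0.0413). This call rests on single libraries, with an unadjusted p of 0.0551 to 0.180 in edgeR when any library other than mutant replicate 3 was left out, and it was 0.103 in limma-voom. Bmp8a, Inha and Inhba, named for their mean CPM, which is not scaled by length, were at log2 fold changes of -0.58, 0.03 and -0.19, and none of the 3 passed. Bmp3, a ligand that opposes other BMPs, had a log2 fold change of 0.65 (SE 0.30, unadjusted p = 0.0546) and is named here although it falls outside the rule for named genes.

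Of 20 other antagonists and modulators, 19 were tested, and 2 were lower and 0 higher at an unadjusted p under 0.05, compared with 4.32% and 2.89% of all genes tested. Bambi, a membrane pseudoreceptor that lacks a kinase domain and is itself induced by BMP signaling, measured 17.1, 20.1 and 20.8 CPM across the controls against 9.22, 13.5 and 11.4 CPM across the mutants. For Bambi this is a log2 fold change of -0.76 (SE 0.22, unadjusted p = 0.00581, adjusted p = 0.676), and in edgeR the unadjusted p was at most 0.0280 with any 1 library left out. Chrdl1, a secreted chordin-like antagonist, measured 16.6, 15.7 and 13.8 CPM across the controls against 13.3, 7.34 and 5.84 CPM across the mutants. Its log2 fold change was -0.80 (SE 0.31, unadjusted p = 0.0276), and the unadjusted p was between 0.0567 and 0.0957 when either of control replicates 1 and 2 or of mutant replicates 2 and 3 was left out. Fstl1, Bmp1 and Nbl1, named for their mean CPM in the same way, had log2 fold changes of 0.50, 0.39 and 0.29, none of which passed. Bmp1 encodes a protease that cleaves chordin and procollagens, not a ligand.

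Of 14 receptors and co-receptors, all were tested, and 1 was lower and 0 higher, against the same shares of all genes. Acvr1c, which encodes the type I receptor ALK7, measured 2.35, 2.44 and 2.89 CPM across the controls against 0.569, 0.734 and 0.850 CPM across the mutants. These are 22 to 37 counts in control and 5 to 9 counts in mutant libraries. The log2 fold change of Acvr1c was -1.82 (SE 0.56, unadjusted p = 0.00862, adjusted p = 0.676), and in edgeR the unadjusted p stayed at or under 0.0479 with any 1 library left out. The BMP receptors Bmpr1a, Bmpr1b and Bmpr2 had log2 fold changes of -0.15, -0.23 and -0.19, with standard errors of 0.17, 0.21 and 0.18. Neo1, Eng and Rgma, named for their mean CPM, had log2 fold changes of 0.0077, 0.39 and -0.32, none past the threshold. All 8 Smad and Smurf genes, which encode the transducers of the signal, their inhibitors and the ubiquitin ligases that remove them, were tested and 0 passed with edgeR at an unadjusted or adjusted p under 0.05. Their log2 fold changes were -0.16 to 0.53, with Smad1 at -0.0044, Smad5 at -0.16 and the feedback inhibitors Smad6 and Smad7 at 0.34 each.

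Of the 9 tested BMP-responsive genes outside the members, 4 passed the unadjusted threshold, 2 higher and 2 lower, which are Id2 and the 3 that follow. Over all genes tested these shares are 2.89% and 4.32%. Dlx3, a homeobox gene, measured 0.963, 0.555 and 1.25 CPM across the controls against 2.05, 3.75 and 2.44 CPM across the mutants, a log2 fold change of 1.55 (SE 0.59, unadjusted p = 0.0240). For Dlx3, leaving out control replicate 2 gave an unadjusted p = 0.0947, mutant replicate 2 an unadjusted p = 0.133 and mutant replicate 3 an unadjusted p = 0.0579. Dlx5, a homeobox gene of osteoblasts and hypertrophic chondrocytes, measured 20.9, 33.1 and 24.8 CPM across the controls against 18.9, 14.9 and 15.8 CPM across the mutants, a log2 fold change of -0.67 (SE 0.22, unadjusted p = 0.0115). Leaving out control replicate 2 gave an unadjusted p = 0.0612 for Dlx5. Runx2, the transcription factor required for osteoblasts and for chondrocyte hypertrophy, measured 132, 93.1 and 92.9 CPM across the controls against 71.6, 87.5 and 58.8 CPM across the mutants. Its log2 fold change was -0.55 (SE 0.21, unadjusted p = 0.0282), and -0.34 without control replicate 1 (unadjusted p = 0.136). The unadjusted p of Runx2 was also 0.0853 without mutant replicate 1 and 0.125 without mutant replicate 3. Of 7 osteoblast markers, none at 0, 2 were higher and 1 lower, with sums of 770.3 to 1220.6 CPM in control and 876 to 1144 CPM in mutant libraries. The higher ones were the osteocalcin genes Bglap, at 3.11 times the control level (unadjusted p = 0.000415), and Bglap2, at 2.47 times (unadjusted p = 0.00473), near-identical copies between which reads are hard to assign. The lower one was Phex, at 0.570 times the control level (unadjusted p = 0.0341). The part of the hypertrophic and osteoblast markers in the Dlx5 and Runx2 values was not tested. Sp7, a factor downstream of Runx2 and a member of that list, had a log2 fold change of -0.41 (SE 0.27, unadjusted p = 0.162).

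**Figure D4:**
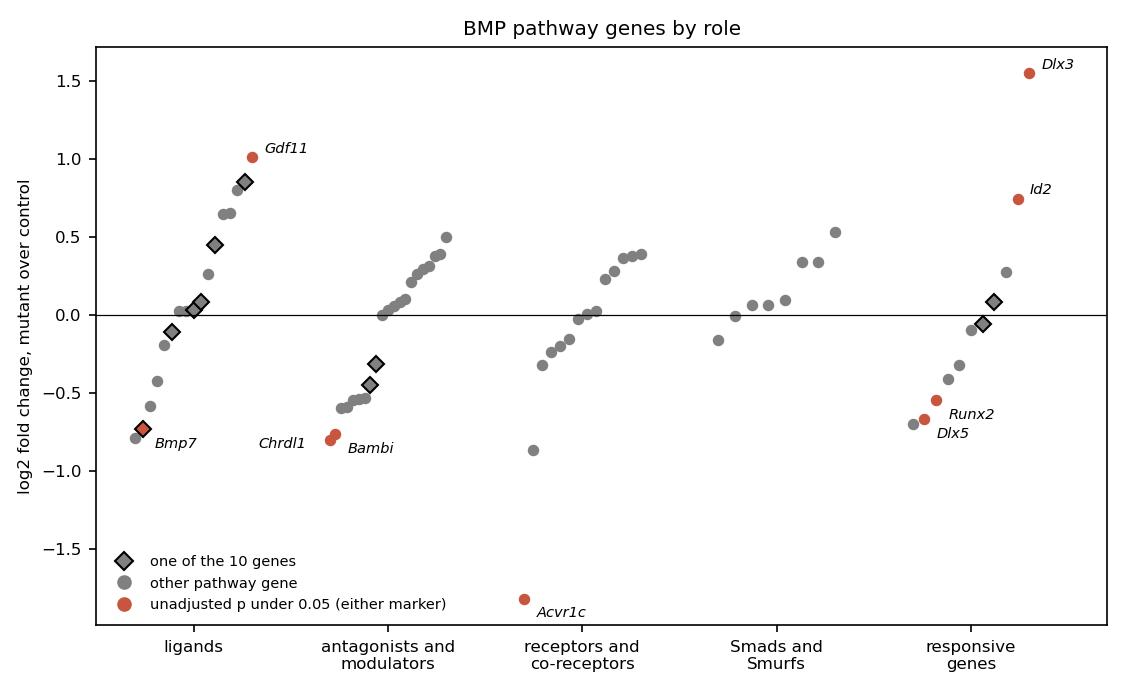
Log2 fold change of mutant over control for the 71 tested pathway genes, sorted within each role. Diamonds are the 10 genes chosen by name, circles the other 61, and red marks an unadjusted p under 0.05 in edgeR. Red points lie on both sides of 0, and the Smad and Smurf genes, from -0.16 to 0.53, have none.

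**Figure D5:**
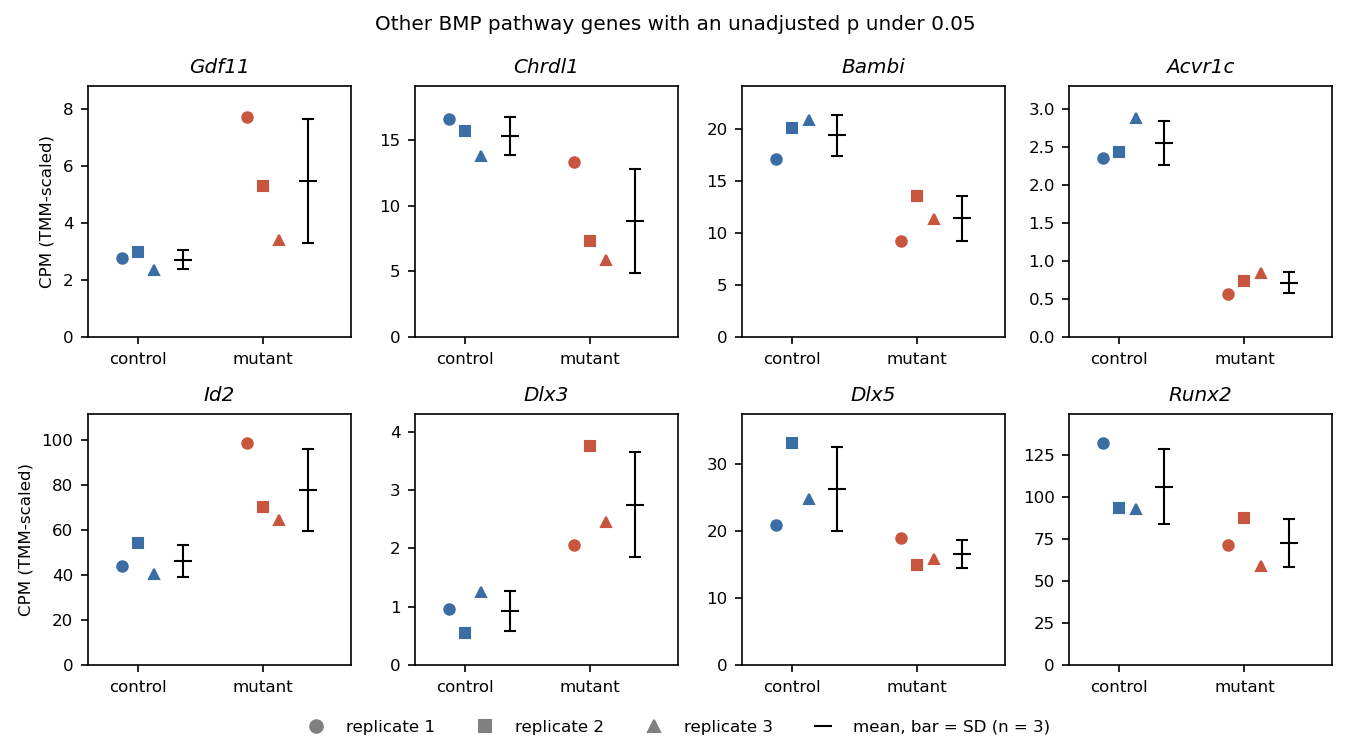
CPM of the 8 other pathway genes with an unadjusted p under 0.05, in each control and mutant library, with the mean ± SD of 3 libraries as a black bar. In each panel the mutant libraries lie on one side of the controls, for example Chrdl1, where 13.3 CPM in mutant replicate 1 lies under 13.8 CPM in control replicate 3.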

How the data were processed

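Poly(A) RNA from 6 IVD pools was sequenced in paired ends. The authors deposited raw read counts per gene symbol, not normalized, 1 file per library. Per the study's methods reads were trimmed with Cutadapt and mapped with HISAT2 to GRCm38, while the submitters' processing notes name STAR 2.5.3a, HTSeq and DESeq2; the strand setting is not given in the sources used here. Reads outside genes (39.4% to 43.3%), ambiguous (0.846% to 1.05%) or not aligned (12.0% to 18.9%) were left out. The authors' table of fold changes, p-values and scaled counts was not used.

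Counts were normalized by TMM, filtered by filterByExpr (count minimum 10) and tested with the quasi-likelihood test of edgeR 4.0.16 in R 4.3.3, with Benjamini-Hochberg adjustment over 16152 genes. The fit was tested on simulated data. Standard errors are the log2 fold change divided by the square root of F. Precision from depth covers counting error only. Alternatives were RLE normalization, no filter, DESeq2 1.42.0, limma-voom 3.58.1 with sample quality weights, a replicate block and leaving out each library. Coordinates and lengths are those of GENCODE M21 (GRCm38), which held 82 of 82 symbols looked up, and promoters are from RefSeq (GRCm38.p6). Named genes are the 10 members, other pathway genes at an unadjusted p under 0.05, up to 3 per list with the highest mean CPM and the targeted gene. The members and lists were chosen with earlier results of these data known. Bmp3, Bmpr1a, Bmpr1b, Bmpr2, Smad1, Smad7 and Sp7 were named after their values were seen.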

Additional observations from a re-analysis of the deposited data

How the results depend on the processing

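Adjusted over all genes, 0 members passed under every alternative, which includes DESeq2 and limma-voom. At an unadjusted p under 0.05 there was 1 member with edgeR, and 2 without the filter on low counts, 2 with DESeq2 and 2 with limma-voom, the added gene being Bmp4 each time. With 1 library left out this count lay between 0 and 2, where edgeR called 3.77% to 14.1% of all genes. The count of members without overlap then lay between 1 and 3, the highest without control replicate 1, where 30.1% of all genes tested do not overlap, compared with 17.4% to 26.9% without any other library. Of the other pathway genes, 5 passed without mutant replicate 3, where 5.1% of all genes did, and at most 12, when mutant replicate 2 was left out, where 9.76% did. Of 110 values of the members under alternatives, 88 kept direction and side of the threshold and 14 changed sign, all in 5 members with an unadjusted p above 0.7. In limma-voom the log2 fold change was -0.0065 for Bmp2, -0.054 for Gdf10 and -0.10 for Id3. Leaving out single libraries gave -0.091 to 0.17 for Bmp2, -0.30 to 0.25 for Bmp6, -0.31 to 0.43 for Gdf10, -0.25 to 0.14 for Id1, and -0.20 to 0.28 for Id3; the cause was not tested. Over all genes, the count at an unadjusted p under 0.05 was 1164, and 2276 of 26418 without the filter, 2427 without control replicate 1 and 618 without control replicate 3. The adjusted count was 1, and 245 without the filter, 58 with DESeq2, 31 without control replicate 1 and 0 with limma-voom, the replicate block or any other library left out. Deviations from the group means correlated at 0.13, -0.17 and 0.09 between control and mutant replicates 1, 2 and 3. Within each group of 3 libraries these deviations sum to 0, so the correlations cannot decide whether the libraries are paired. With the replicate block, 1 member and 7 other pathway genes passed, without Gdf11 (unadjusted p = 0.0641), and 1002 of all genes. The called genes with fewest counts were Acvr1c, Dlx3 and Gdf11, with means between 0.718 and 5.48 CPM; whether depth limits their calls was not tested, and Acvr1c kept its call under 11 of 11 alternatives.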

Other observations

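The ratio of Bmp7 to Bmp4 counts needs no scaling between libraries. This pair was picked after the values were seen, so the ratio is given as a description with no test. In replicate order it measured 1.85, 6.31 and 4.37 across the controls against 1.35, 0.580 and 1.85 across the mutants. Control replicates 2 and 3 lay above all mutant libraries, and control replicate 1, the library with skeletal muscle genes, was level with mutant replicate 3. Bmp4 had more counts than Bmp7 in mutant replicate 2 alone, with 181 counts compared with 105.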
